A study of Malus domestica with 34 samples.

Results

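Among the genes of apple seedlings (Malus domestica) were 222 that were abundant in every leaf library and nearly absent from every root library. They were chosen from 52311 gene identifiers by their own measured levels in CPM, a gene's count divided by the sum of its library and multiplied by 1000000. A gene was kept when its lowest level over 18 leaf libraries was at least 50 CPM and at least 32 times its highest level over 16 root libraries. Its mean log2(CPM + 1) also had to differ by less than 1 between droughted and well-watered leaves at the first sampling, and by less than 1 between next-year and first-year leaves. Of the identifiers, 1915 met the leaf floor, 243 met the floor and the ratio, and 222 met both limits as well. The 21 genes dropped by a limit are described at the end.

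All seedlings belonged to the doubled haploid line GDDH18 of 'Golden Delicious', in which both copies of each chromosome are the same. Droughted plants passed through cycles of 3 weeks of water restriction at 45% of the soil's water capacity and 3 weeks of recovery, starting at 12 weeks of age. Well-watered plants stood near 80% all the way through. Leaves and roots were collected after the first drought stress, after the third drought stress and, in the next year, after winter and before any new stress. The sample titles do not say whether recovery had begun. Leaf groups had 3 libraries each, and so did root groups, except that each next-year root group had 2. The replicate number marks a sowing block, and the blocks were sown a week apart. The number of plants behind each library is not stated, so the spread between libraries need not be a spread between single plants.

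Leaves are the main site of photosynthesis. In leaf cells of plants the nuclear transcripts that tend to dominate are those for the light-harvesting and photosystem proteins, the small subunit of the carbon-fixing enzyme Rubisco, the other Calvin cycle enzymes and the photorespiratory enzymes, and roots, which lack working chloroplasts, hold little of them. The deposited table does not pair its identifiers with names, and none of the 222 (0 matches) appeared in the RefSeq gene table at hand. Which of them belong to those families was therefore not established here, the tissue labels could not be checked against named markers, and the genes are described by identifier, level and behaviour.

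Leaf libraries held 25974815 to 68239819 counts, and root libraries held 29963017 to 60194325. A library of well-watered leaves, that of block 2 at the third sampling, stood apart from the other 2 of its group. In it 201 of the 222 genes (90.5%) had their lowest level of the group, as did 77.9% of 1589 comparison genes. These 1589 met the leaf floor and both limits but not the ratio to root, and they are called unrestricted below. The main values that it enters are also given without it.

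The 222 genes took up 9.00% to 25.2% of all counts in a leaf library, against 0.0149% to 0.0353% in a root library. Mean leaf levels ran from 76.5 to 19403 CPM with a median of 317 CPM. Of the 222 genes, 56 averaged at least 1000 CPM and 16 averaged under 100 CPM. These levels are shares of counts, not of transcripts, because no gene lengths were available to correct for.

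The order of the top genes by mean leaf CPM was MD17G1244400 (19403 CPM), MD11G1095300 (8012 CPM), MD05G1289300 (6675 CPM), MD09G1252100 (4772 CPM) and MD17G1113400 (4459 CPM). Their highest levels in any root library were 25.9, 7.26, 5.57, 5.04 and 5.11 CPM in the same order. Without these 5 genes the others still took 14.9% of counts in droughted and 15.8% in well-watered leaves at the first sampling, as means of 3 libraries. The 10 genes highest in leaf held 28.6% to 34.6% of the counts of all 222 in every leaf library.

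The widest separations from root were those of MD17G1214900 and MD11G1002900. MD17G1214900 had 73.5 CPM in its lowest leaf library and 0.0726 CPM in its highest root library, a ratio of 1013. MD11G1002900 had 85.5 CPM in its lowest leaf library and 0.129 CPM in its highest root library, a ratio of 662. Both root levels rest on few counts, so both ratios are uncertain. Both genes were modest in leaf, ranking 197 and 160 of 222 by mean level. Across the 222 genes the ratio of lowest leaf to highest root level had a median of 198, and 157 genes reached 100. These ratios were part of the choice of genes and are a description.

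**Figure D1:**
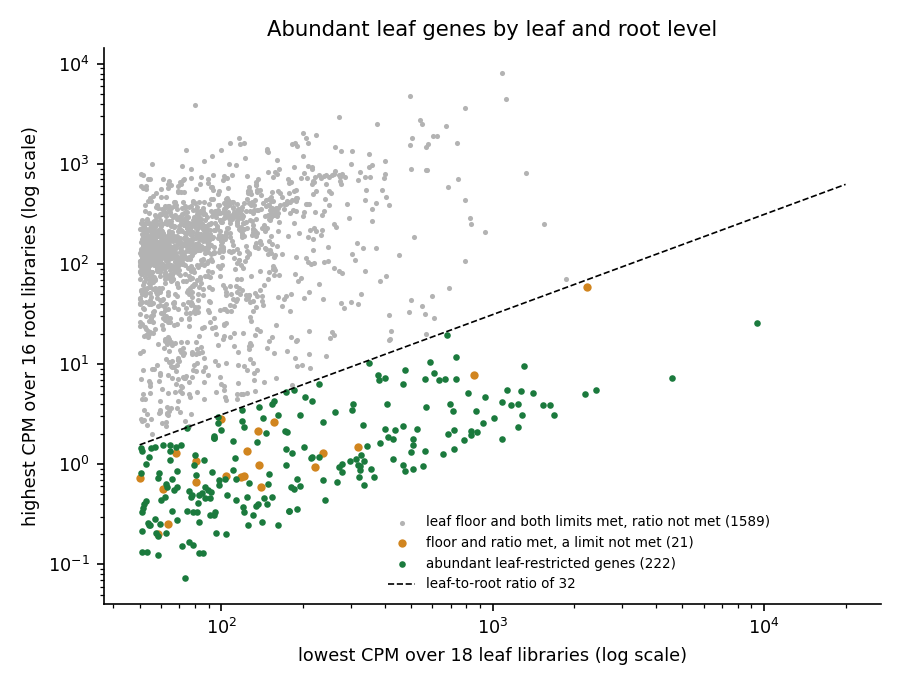
Each point is a gene, with its lowest CPM over 18 leaf libraries on the x axis and its highest CPM over 16 root libraries on the y axis, both on log scales. The 222 leaf-restricted genes lie below the dashed line of a ratio of 32, the 21 genes that failed a limit lie among them, and the 1589 unrestricted genes lie above it.

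Root libraries still held traces of most of these genes. In root, 148 of the 222 had a count in all 16 libraries, and 105 never reached 1 CPM. The 5 genes that reached 10 CPM in some root library were MD17G1244400, MD10G1195700, MD01G1044100, MD15G1126100 and MD06G1165400, named after their values were seen. MD15G1126100 had a median of 8.15 CPM and a highest value of 10.5 CPM over the 16 root libraries, a narrow span. MD17G1244400 had a median of 4.67 CPM and a highest value of 25.9 CPM in root, a wide one.

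The summed root level of the 222 genes varied between libraries from 149 to 353 CPM. In the 4 root libraries with the largest sums, the 10 genes highest in leaf held 15.7% to 19.2% of that sum, while in the 4 with the smallest sums they held 4.85% to 8.99%. The relation had exceptions, as the block 1 droughted root library of the first sampling had a sum of 246 CPM, the 6th largest, and a share of 7.56%. No root library reached the 28.6% to 34.6% seen in leaf. Across the 222 genes, the log2 of mean CPM in leaf and in root had a Pearson r of 0.58 and a Spearman rho of 0.57. This is a description across genes, which are not independent replicates. The ratio of at least 32 kept out genes high in root relative to leaf, so part of this relation could come with the choice. The source of these root counts was not tested.

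**Figure D2:**
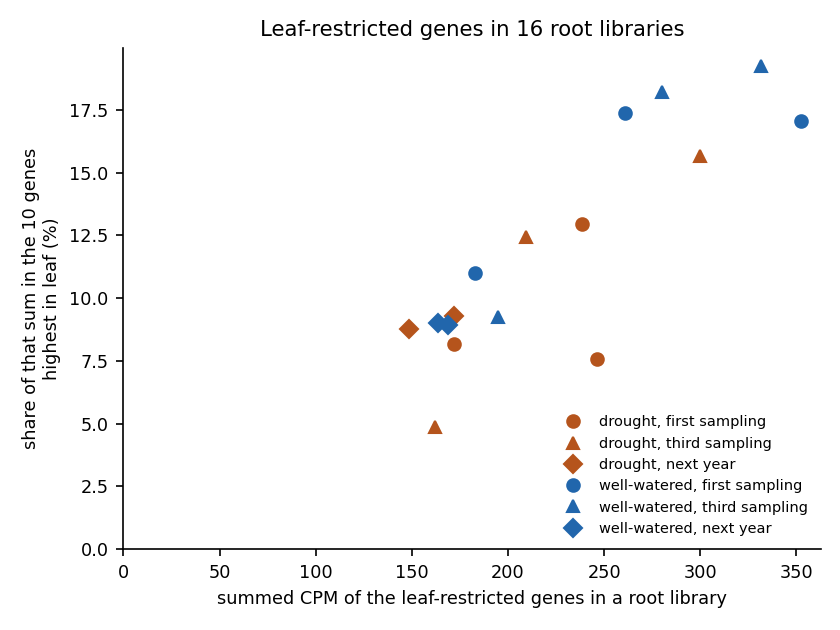
Each point is one of 16 root libraries, with the summed CPM of the 222 genes on the x axis and, on the y axis, the percent of that sum held by the 10 genes highest in leaf. The 5 libraries with sums of 261 to 353 CPM have shares of 15.7% to 19.2%.

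The share of leaf counts taken by the 222 genes was, as a group mean, lowest at the third sampling. At the first sampling it was 18.9% ± 1.80 in droughted and 20.5% ± 0.668 in well-watered leaves (SD, n = 3 each). At the third sampling it was 15.9% ± 0.380 in droughted and 13.9% ± 4.62 in well-watered leaves. In the next year it was 23.3% ± 1.78 in droughted and 23.9% ± 0.589 in well-watered leaves. The single well-watered libraries of the third sampling had 14.6%, 9.00% and 18.2% in blocks 1, 2 and 3, and block 2 lay far below the others. Without block 2 the mean of well-watered leaves was 16.4%, above the 15.9% of droughted leaves, so the order of the regimes turned. In bulk leaf RNA, fewer cells of a type and less RNA per cell cannot be told apart. The unrestricted genes took 26.9% to 31.9% of counts as group means, the lowest being that of well-watered leaves at the third sampling, which was 29.2% without block 2.

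**Figure D3:**
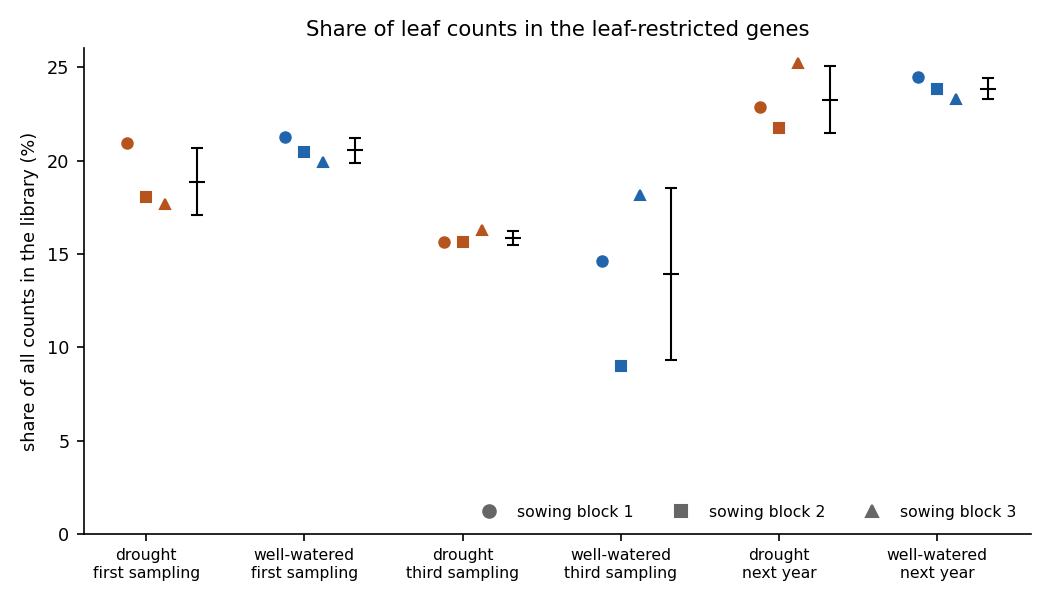
Percent of all counts in a leaf library that fell in the 222 genes, by regime and sampling, with 1 point per library and its sowing block as the symbol. Black marks are the mean ± SD of 3 libraries. The third-sampling groups average 15.9% with drought and 13.9% well-watered (16.4% without block 2), below the next-year groups at 23.3% and 23.9%.

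The rule set no direct limit on how the genes changed between the first and the third sampling. Plant age and date differ together between the samplings and cannot be told apart. Well-watered leaves at the third sampling were set against well-watered leaves at the first, with edgeR's quasi-likelihood test fitted over all 18 leaf libraries and 32307 genes and Benjamini-Hochberg adjustment. A gene was called at an adjusted p under 0.05. Of the 222 genes, 106 fell (47.7%), where 6.98% of all genes tested were called lower. None rose (0 of 222), where 8.11% of all genes were called higher. Of the 1589 unrestricted genes, 350 fell (22.0%) and 2 rose (0.126%), so the near absence of rises was shared by both sets. The floor of 50 CPM in every leaf library held back any gene that fell below it, and these libraries were among those the rule used.

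Over all 222 genes the median log2 change in well-watered leaves was -0.58, with 208 negative and 14 positive values. It was -0.33 over the unrestricted genes and near 0 over all genes tested. The 106 that fell did so by a median of 1.74-fold, and 32 of them by at least 2-fold. By mean leaf level, 50 of the highest 74 genes were called lower, 31 of the middle 74 and 25 of the lowest 74. In droughted leaves, compared further below, the counts were 29, 29 and 26 in the same order. Differences between these counts were not tested. Levels of 74 of the 222 genes did not overlap between the groups and lay lower at the third sampling, against 5.12% of all genes tested, and 1 lay higher, against 17.5%.

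MD03G1069500 fell the most of those whose groups did not overlap. It had 1966, 715 and 2154 CPM in well-watered leaves at the third sampling, against 5462, 3175 and 4742 CPM at the first, in blocks 1, 2 and 3. All 3 later values lay below all 3 earlier ones. The fitted fall was 3.34-fold (log2 change -1.74, SE 0.30, adjusted p = 0.0060). Its first-drought difference of -0.89 was the lowest of the set, so its high start in well-watered leaves lay near the edge of what the rule allowed.

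MD17G1113400 had 3159, 1406 and 2372 CPM at the third sampling, against 5019, 6438 and 5680 CPM at the first. Again the groups did not overlap, and the block 2 library was the lowest of its group. The fitted fall was 2.92-fold (log2 change -1.55, SE 0.24, adjusted p = 0.0052). Fitted on the 6 libraries of these groups alone, the adjusted p was 0.142 for MD03G1069500 and 0.126 for MD17G1113400, the highest of all alternatives tried, the lowest being 1.34e-06 and 5.72e-08 under DESeq2.

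The most abundant gene, MD17G1244400, had 15579, 9427 and 19496 CPM at the third sampling, against 22287, 19330 and 20982 CPM at the first. It fell 1.66-fold (log2 change -0.73, SE 0.20, adjusted p = 0.0290), but its groups overlapped. MD11G1095300 (log2 change -0.67), MD05G1289300 (-1.08) and MD09G1252100 (-0.99) were called lower as well, so all 5 of the most abundant genes fell in well-watered leaves. Without block 2 of the third sampling the calls of MD17G1244400, MD11G1095300 and MD05G1289300 were lost, at adjusted p of 0.0908, 0.0528 and 0.122. Those 3 calls and that of MD09G1252100 were also lost without block 1 of the first sampling, at 0.119, 0.0638, 0.164 and 0.0593, and with the 6 libraries alone, at 0.266, 0.199, 0.219 and 0.152. MD17G1244400, MD11G1095300 and MD05G1289300 lost their calls without block 2 of the first sampling too (0.0659, 0.0704 and 0.0987), and MD17G1244400 and MD05G1289300 without block 1 of the third (0.0680 and 0.0729). Over all alternatives the lowest adjusted p of these 4 genes were 0.0021, 0.00057, 0.0073 and 0.00014, in order of level.

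The number of called genes in well-watered leaves was 48 without the block 1 and 58 without the block 2 library of the first sampling, 55 without the block 2 library of the third sampling, and 0 when the 6 libraries were fitted alone. Over all genes tested, those called lower numbered 2255 in the main fit and 494, 816, 875 and 1 in these fits, in the same order. Without each library in turn the median log2 change of the 222 genes lay between -0.69 and -0.53, and it was -0.56 with the 6 libraries alone.

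Droughted leaves at the third sampling against droughted leaves at the first was the other comparison over the season. Of the 222 genes, 84 fell (37.8%), where 7.99% of all genes were called lower. A single one rose (1 of 222), where 8.57% of all genes were called higher. Of the unrestricted genes, 347 fell (21.8%) and 22 rose. The median log2 change was -0.46 over the 222 genes and -0.26 over the unrestricted ones. The fall had a median of 1.69-fold among the 84, of which 12 reached 2-fold. Levels of 77 genes did not overlap and lay lower at the third sampling, against 6.24% of all genes tested, and 5 lay higher, against 30.6%.

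MD10G1062300 had 2179, 2304 and 1085 CPM in droughted leaves at the third sampling, against 5815, 5747 and 4513 CPM at the first. The groups lay far apart, and the fitted fall was 3.57-fold (log2 change -1.84, SE 0.31, adjusted p = 0.0023). This gene sat just inside the limit on the first drought, with a difference of 0.91, so its high start in droughted leaves is a value that the rule allowed at its edge. MD01G1137900 had 3160, 2091 and 1011 CPM at the third sampling, against 6704, 6481 and 4992 CPM at the first, and fell 3.59-fold (log2 change -1.84, SE 0.39, adjusted p = 0.0071). Its adjusted p was 0.0549 when the 6 libraries were fitted alone, the highest of the alternatives, and 4.39e-05 under DESeq2, the lowest. Its start in droughted leaves was raised as well, by a first-drought difference of 0.84.

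MD09G1116400 was the gene that rose. It had 367, 477 and 535 CPM in droughted leaves at the third sampling, against 209, 190 and 287 CPM at the first. The groups did not overlap, and the fitted rise was 1.65-fold (log2 change 0.72, SE 0.19, adjusted p = 0.0217). It started low in droughted leaves, with a first-drought difference of -0.89 that was near the edge of the rule. In well-watered leaves its values were 404, 215 and 409 CPM at the third sampling and 483, 397 and 381 CPM at the first. The call was lost, at an adjusted p of 0.0644 to 0.0952, without either of 2 libraries of the first sampling or either of 2 of the third, and with the 6 libraries alone (0.0876). The lowest over the alternatives was 0.0029, under DESeq2.

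For droughted leaves the count of genes that fell was 50 without the block 1 and 47 without the block 2 library of the first sampling, and 20 with the 6 libraries alone. Over all genes tested, those called lower numbered 2580 in the main fit and 1803, 1022 and 575 in these fits, in the same order. Of the 222 genes, 48 were called in both regimes, all of them lower. A shared sign was nearly fixed beforehand, since well-watered leaves had 0 called higher and droughted leaves had 1. The 48 genes made up 45.3% of the 106 called in well-watered leaves and 56.5% of the 85 called in droughted leaves, and 79 genes were called in neither. The overlap was not counted over all genes or over the unrestricted genes. The first-sampling libraries of both regimes also entered the rule.

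**Figure D4:**
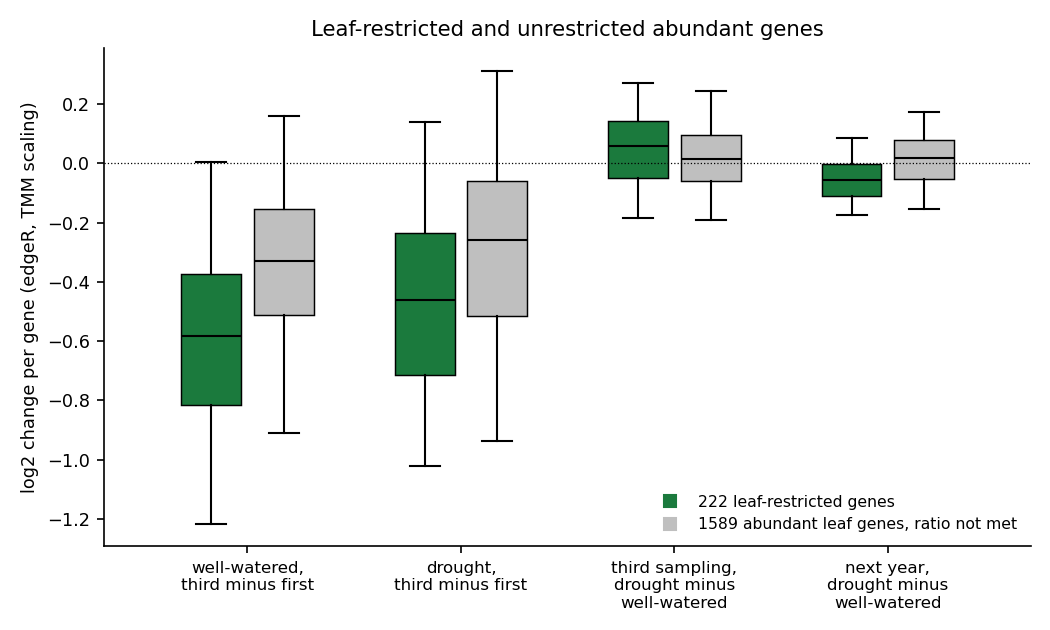
Log2 changes per gene from edgeR for the 222 leaf-restricted genes (green) and the 1589 unrestricted genes (grey) in 4 comparisons. Boxes span the quartiles with the median as a line, and whiskers run from the 5th to the 95th percentile. Green medians lie at -0.58 and -0.46 for the third against the first sampling, and near 0 for drought against well-watered.

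The falls had smaller medians on plain CPM than in the edgeR fit. The tests used TMM factors, which hold the bulk of genes near 0, whereas on plain CPM the median over all genes tested was 0.13 higher at the third than at the first sampling in well-watered leaves and 0.21 higher in droughted leaves (log2). On plain CPM the median over the 222 genes was -0.42 in well-watered leaves (-0.19 without block 2 of the third sampling) and -0.18 in droughted leaves, below the median of all genes in each. Over the unrestricted genes it was -0.13 in well-watered and 0.04 in droughted leaves, also below the median of all genes.

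Block by block, the third against the first sampling gave plain CPM medians over the 222 genes of -0.23, -0.88 and -0.18 in well-watered leaves for blocks 1, 2 and 3. All genes tested gave 0.36, -0.07 and 0.09 in the same blocks. In droughted leaves the 222 genes gave -0.31, -0.09 and -0.24, and all genes tested gave 0.24, 0.26 and 0.13. The unrestricted genes gave 0.09, -0.39 and -0.11 in well-watered leaves and 0.06, 0.11 and -0.10 in droughted leaves. In each of the 6 pairs the unrestricted genes also stood below all genes tested, and the leaf-restricted genes stood below both. The block 2 pair of well-watered leaves gave the largest fall.

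The next question was whether repeated drought changed these genes. At the third sampling, droughted against well-watered leaves gave no call among the 222 genes (0 higher and 0 lower), as among all genes tested (0.0% in each direction). At an unadjusted p under 0.05 there were 0 of the 222 and 727 of all genes (2.25%), and DESeq2 called 0 of the 222. The log2 changes lay between -0.51 and 0.60 with a median of 0.06, 142 of them positive and 80 negative. A standard error had a median of 0.19, so changes of that order in single genes were within the error. The groups failed to overlap with drought above in 2 genes, against 2.68% of all genes, and with drought below in 0 genes, against 0.854%.

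MD03G1069500 had the smallest p among the positive changes, with 2558, 2981 and 2111 CPM in droughted leaves at the third sampling, against 1966, 715 and 2154 CPM in well-watered leaves. The groups overlapped, and the block 2 well-watered library was far below the rest (log2 change 0.60, SE 0.29, adjusted p = 1.0). MD07G1135600 had the smallest p among the negative changes, with 96.1, 107 and 82.8 CPM in droughted and 104, 97.9 and 91.9 CPM in well-watered leaves (log2 change -0.18, SE 0.14, adjusted p = 1.0).

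Within blocks the difference did not keep its sign. On plain CPM the median over the 222 genes, droughted minus well-watered, was 0.07 in block 1, 0.69 in block 2 and -0.16 in block 3, and 145, 217 and 39 of the 222 genes were higher with drought in those blocks. Over all genes tested the medians were -0.03, 0.31 and 0.01. Without the block 2 well-watered library the fitted median of the 222 genes was -0.03, a turn of direction from 0.06.

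In the next year, before any new stress, formerly droughted against well-watered leaves again gave no call (0 higher and 0 lower among the 222 genes, and 0.0% of all genes in each direction). At an unadjusted p under 0.05 there were 0 of the 222 and 356 of all genes (1.10%), and DESeq2 called 0 of the 222. The choice of genes by the rule limits this count as well, and that of the interaction below. Log2 changes spanned -0.34 to 0.24 with a median of -0.06, and 171 were negative against 51 positive. The median was -0.16 without the block 3 and 0.01 without the block 2 library of formerly droughted leaves, so its sign rested on single libraries. The groups did not overlap with drought above in 2 genes (3.72% of all genes) and with drought below in 12 genes (3.57% of all genes). Plain CPM medians in blocks 1, 2 and 3 were -0.11, -0.14 and 0.05, so block 3 had the other sign.

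MD01G1064800 had 118, 110 and 99.3 CPM in formerly droughted leaves, against 140, 124 and 120 CPM in well-watered leaves in the next year. All 3 values of formerly droughted leaves lay lower, by little (log2 change -0.23, SE 0.15, adjusted p = 1.0). MD08G1162900 had 131, 130 and 141 CPM against 117, 122 and 115 CPM, with no overlap in the other direction (log2 change 0.19, SE 0.16, adjusted p = 1.0). The difference between the drought effects of the next year and the third sampling, tested as an interaction in the same edgeR fit, gave 0 calls among the 222 genes (0.0% of all genes), 0 of the 222 at an unadjusted p under 0.05, and a median log2 difference of -0.12 (-0.04 without block 2 of the well-watered leaves at the third sampling, -0.27 without block 3 of the same group).

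The first drought and the winter were limited by the rule, and their values are given as a description. At the first sampling, droughted minus well-watered mean log2(CPM + 1) was positive in 89 genes and negative in 133, with a median of -0.09. The edgeR fit placed 3 of the 222 among the called higher, where 5.13% of all genes were, and 8 among the called lower, where 6.67% were. Nothing is read from these counts, since genes with a large response were kept out. Next-year minus first-year leaves were positive in 213 of the 222 genes and negative in 9, with a median of 0.47, against -0.07 over the unrestricted genes. The highest of the 6 leaf group means was that of well-watered next-year leaves in 150 genes, and the lowest was that of well-watered third-sampling leaves in 168. Without block 2 of that group, the lowest mean was in droughted third-sampling leaves in 91 genes and in well-watered third-sampling leaves in 56.

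Between leaf libraries the spread of the 222 genes had a higher median than that of the unrestricted genes, and the difference was not tested. Mean leaf levels differed too, with medians of 317 CPM in the 222 genes and 119 CPM in the unrestricted genes. The SD of log2(CPM + 1) over the 18 leaf libraries had a median of 0.417 in the leaf-restricted genes and of 0.291 in the unrestricted genes. Within groups the medians were 0.275 in the leaf-restricted and 0.215 in the unrestricted genes. Without the block 2 well-watered library of the third sampling these were 0.343 and 0.275 over all leaf libraries, and 0.199 and 0.196 within groups, so that nearly all of the within-group gap came with that library. The ratio of the highest to the lowest leaf level was at least 2 in 205 of the 222 genes and at least 4 in 45, with a median of 2.88. Without that library it was at least 2 in 153 genes and at least 4 in 12, with a median of 2.21.

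Deviations from the group means, correlated over the 18 leaf libraries for each pair of genes, had a median r of 0.47 among the 222 genes and of 0.25 among the unrestricted genes. Without the block 2 well-watered library of the third sampling the medians were 0.18 among the 222 genes and 0.06 among the unrestricted genes, so much of the common movement lay in that library. These correlations share libraries and depth and are a description.

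At the steady end stood MD01G1149700 and MD16G1002000. MD01G1149700 ranged from 61.0 to 103 CPM over the 18 leaf libraries, an SD of 0.188 on the log2 scale. MD16G1002000 ranged from 172 to 287 CPM, an SD of 0.203. At the other end, MD02G1209700 ranged from 80.3 to 845 CPM (SD 0.799), and MD10G1265400 from 736 to 7010 CPM (SD 0.850).

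**Figure D5:**
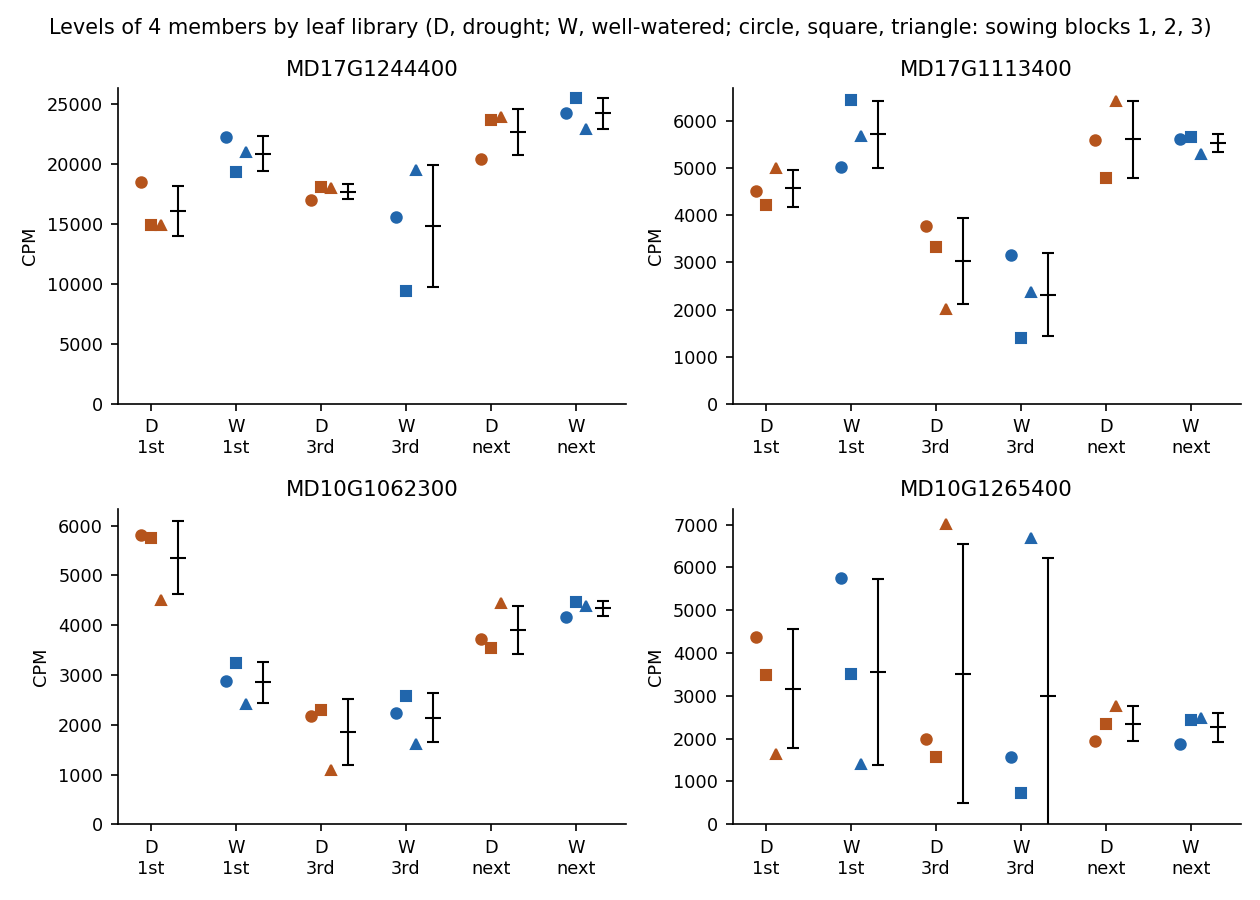
CPM of 4 of the 222 genes in each of 18 leaf libraries, by regime (D, drought; W, well-watered) and sampling, with the sowing block as the symbol and black marks for the mean ± SD of 3 libraries. MD17G1244400 and MD17G1113400 include the low block 2 well-watered library at the third sampling, MD10G1062300 starts high in droughted leaves, and MD10G1265400 has its block 3 libraries highest at the third sampling, where a lower SD bar is cut off at 0.

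MD10G1265400 differed by block rather than by regime. At the first sampling it had 4373, 3477 and 1641 CPM in droughted leaves and 5750, 3515 and 1416 CPM in well-watered leaves of blocks 1, 2 and 3. At the third sampling it had 1990, 1563 and 7010 CPM in droughted and 1580, 736 and 6691 CPM in well-watered leaves. Block 3 was thus the lowest at the first sampling and the highest at the third, in both regimes. In the next year the values lay between 1871 and 2758 CPM, with no such spread. Its changes carried standard errors near 0.72, and none was called (adjusted p of 0.61 or more).

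Its neighbour in the table, MD10G1265300, ran in the same order, with 4132, 2569 and 1498 CPM in droughted and 4676, 2926 and 1361 CPM in well-watered leaves at the first sampling. At the third sampling it had 1490, 1361 and 3321 CPM in droughted and 1155, 697 and 4097 CPM in well-watered leaves. A further adjacent pair, MD05G1289300 and MD05G1289200, had the same block order at the first sampling and block 3 highest at the third, in both regimes. MD05G1289300 had 7997, 7107 and 5346 CPM in droughted and 10400, 8768 and 5257 CPM in well-watered leaves at the first sampling, and 5490, 4732 and 6629 CPM in droughted and 5151, 2405 and 6556 CPM in well-watered leaves at the third. Salmon divides reads between similar transcripts, so counts of near-identical neighbours are uncertain. These pairs were the longest runs of adjacent rows, and 26 of the 222 genes lay within 5 rows of another.

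The thresholds fell among close values. MD02G1004100, with a lowest leaf level of 50.8 CPM, was kept, and MD03G1172200, with 49.3 CPM, was not. MD14G1132200 was kept at a ratio of 32.4, and MD15G1347600 was left out at 31.5. MD10G1062300 was kept with a first-drought difference of 0.91, and MD07G1207000 was left out at -1.08. MD11G1191900 was kept with a winter difference of 0.985, and MD03G1173700 was left out at 1.02.

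Of the 243 genes that met the floor and the ratio, 13 exceeded the limit on the first drought, 4 of them with higher levels in droughted leaves, and 12 exceeded the limit on winter, 7 of them with higher levels in the next year. These counts share 4 genes, which gives the 21 left out. The same floor and ratio with the tissues exchanged, with no limits on drought or winter, picked 54 genes abundant in every root library and nearly absent from leaf, against 243 for leaf.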

How the data were processed

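RNA was sequenced from 18 leaf and 16 root libraries, prepared with a stranded mRNA kit and read in pairs of 100 bp (per the labels' protocols). The deposited table holds estimated counts per gene identifier, already whole numbers. The submitters' processing notes name FastQC, Salmon, DESeq and DESeq2, while a genome build, an annotation and settings are not given in these sources. The unit follows from those notes and from whole values with unequal library sums.

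The members of the gene set, and the comparisons and lists used, were chosen with earlier results of these data known. CPM used plain column sums. edgeR 4.0.16 (R 4.3.3; TMM factors, its default filter on low counts, robust quasi-likelihood fit, 6 leaf groups fitted together) tested 32307 genes, all 222 among them, with Benjamini-Hochberg adjustment over all of them, and the procedure was tested on simulated data. DESeq2 1.42.0 was an alternative, as were another scaling, no filter, a block term, fewer groups and fewer libraries. Shares, spreads, correlations and the interaction without the block 2 well-watered library of the third sampling, and the alternatives for the 5 most abundant genes, were chosen after seeing the data. Genes were named by rule: the 5 highest in leaf CPM, the 2 smallest and 2 largest SDs, the 2 highest leaf-to-root ratios, those on either side of each threshold, adjacent runs, and per comparison up to 2 called rises and 2 called falls without overlap, or else the smallest p in each direction.

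Replicate numbers pair libraries because the labels give them as sowing blocks. Deviations of same-numbered libraries correlated at 0.22 to 0.64 between regimes at the third sampling and 0.16 to 0.39 in the next year, and at -0.39 to 0.12 between samplings. At the third sampling blocks 1, 2 and 3 gave 0.40, 0.22 and 0.64. The highest correlation there with a differently numbered library of the other regime was 0.35, 0.25 and -0.42, so block 2 was not closest to its own number. In the next year it was -0.16, -0.02 and -0.07. No 2 libraries of a group agreed within sampling noise (chi-square per gene of 25.9 or more). Pathway and marker lists that need gene names could not be run.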

Additional observations from a re-analysis of the deposited data

How the results depend on the processing

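With RLE scaling, no filter, the replicate block or DESeq2, the genes that fell in well-watered leaves at the third against the first sampling numbered 100, 101, 105 and 122, and in droughted leaves 84, 79, 89 and 103. Those called lower over all genes tested in these fits numbered 1920, 1863, 2349 and 2854 in well-watered leaves. In droughted leaves they numbered 2586, 2206, 2542 and 3582, in the same order. The replicate block changed no call among the 9 genes whose calls were refitted. Over all 222 genes it kept 104 of the 106 calls in well-watered leaves and gave 105 in all. In droughted leaves it kept 83 of the 85 calls and gave 90 in all, so calls were gained as well as lost. Fitting only the libraries of the groups compared gave 0 for well-watered leaves, and 20 lower and 0 higher for droughted leaves. All genes called lower then numbered 1 and 575. Among the 222 genes, leaving out each replicate in turn gave 48 to 118 for well-watered leaves, and 47 to 80 lower and 0 to 1 higher for droughted leaves. All genes called lower then numbered 494 to 2721 in well-watered and 1022 to 2794 in droughted leaves. For drought against well-watered, 0 of the 222 genes were called under every alternative, with medians of -0.03 to 0.20 at the third sampling and -0.164 to 0.0138 in the next year without single replicates. The cause of these shifts was not tested. The fits of the compared groups alone and those without single replicates also had fewer libraries.

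The set itself numbered 222, against 142 with a floor of 100 CPM, 303 with 25 CPM, 279 and 180 with ratios of 16 and 64, 100 with limits of 0.5, 227 with TMM-scaled CPM (205 shared) and 215 to 243 without single libraries. Without the 5 most abundant genes the shares were 14.9% in droughted and 15.8% in well-watered leaves at the first sampling, 12.3% in droughted and 10.9% in well-watered leaves at the third, 18.1% in droughted and 18.5% in well-watered leaves in the next year, and 0.0161% in well-watered next-year roots. Root levels near 0.1 CPM rest on few counts.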
